A study of Rattus norvegicus with 47 samples.

Results

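The Kcn genes encode the pore-forming and accessory subunits of potassium channels. They were taken as every probe set of the array whose platform annotation names a single gene with a symbol starting with Kcn, which gave 82 of 8799 probe sets and 54 of 4737 named genes in 18 subfamilies. Potassium channels let potassium leave or enter the cell along its gradient, and so set the resting potential, end the action potential and limit how fast a neuron fires. The voltage-gated families (Kcna, Kcnb, Kcnc, Kcnd, Kcnh and Kcnq) open on depolarisation, inward rectifiers (Kcnj) hold the resting potential, and tandem-pore channels (Kcnk) carry leak current. In astrocytes, inward rectifiers take up the potassium that active neurons release. The largest subfamilies on the array were the inward rectifiers Kcnj (22 probe sets, 15 genes), Kcnh (11 probe sets, 8 genes) and Kcna (10 probe sets, 6 genes).

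RNA came from rat brain after an injury and was hybridised to 47 arrays, each of cortex or of the region labelled HC, read here as hippocampus. Samples were taken either ipsilaterally to the injury or from the opposite, contralateral hemisphere. The groups were ipsilateral cortex at 4 h (7 arrays) and 24 h (8 arrays), contralateral cortex at 4 h (8 arrays) and 24 h (8 arrays), and ipsilateral (7 arrays) and contralateral hippocampus (9 arrays), both at 4 h. Single arrays are named by the extraction number in their labels ("Trizol Extraction" and a number). These numbers run mostly in blocks by group, so any effect of extraction order cannot be told apart from group. All groups share the same treatment label ("wait"), and the labels give no strain, age, sex, injury model or sham group, so no comparison is one of injured with uninjured animals. Nothing in the labels says that arrays are separate animals, so the spread behind each p-value is that between samples and could be technical.

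The deposited signal is a linear intensity, and median signals per array ran from 615 to 879. Signals below 186, the 25th percentile of all values, were raised to that floor and log2 was taken. A probe set was tested if it exceeded the floor on at least 7 arrays. Of the 82 Kcn probe sets 73, from 50 genes, were tested, and 42 of them exceeded the floor on every array. The 9 left untested, 1 each of Kcna2, Kcne1, Kcnh8, Kcnj2, Kcnj5, Kcnk3, Kcnn3, Kcnq1 and Kcnq3, were above the floor on at most 6 arrays. Calls are adjusted p-values under 0.05 from limma's moderated test, with Benjamini-Hochberg adjustment over all 7503 tested probe sets. A level is never set against that of another probe set, and since these are bulk tissue samples, fewer cells of a type and less RNA per cell cannot be told apart.

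The mean log2 level of neuronal markers, over 9 of 14 listed genes that were measured, lay between 13.2 and 13.7 on all arrays. Its ranges in cortex and hippocampus overlapped, so it cannot check the labels of region or side. Array quality varied with group in 2 ways that touch the results. The 10th percentile of signal was 43.98 ± 6.85 (SD, n = 7) in ipsilateral and 64.8 ± 16.1 (SD, n = 9) in contralateral hippocampus. The ratio of the 3-prime to the 5-prime Gapdh control, which rises as RNA is degraded, was 1.19 ± 0.0853 (SD, n = 7) and 1.21 ± 0.0692 (SD, n = 8) in ipsilateral and contralateral cortex at 4 h. It was 1.09 ± 0.0368 (SD, n = 8) and 1.08 ± 0.0358 (SD, n = 8) in the same tissues at 24 h. In hippocampus at 4 h it was 1.12 ± 0.0538 (SD, n = 7) ipsilaterally and 1.09 ± 0.0414 (SD, n = 9) contralaterally. The ratio thus differed between regions at 4 h as well as between times in cortex. Both the 10th percentile and this ratio were also entered as a term in the model, and the counts and calls under them stand beside the results.

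Cortex and hippocampus differed in many Kcn transcripts. Silent modifier subunits, which form no channel alone but alter the gating of Kcnb channels they join, were mostly lower in hippocampus, led by Kcns1, and so were Kcnh1, Kcnh3, Kcnj4 and Kcnk1. Kcnab1 and Kcnj10 were higher there. At 4 h on the contralateral side, 37 of the 73 tested probe sets (50.7%), from 30 genes, passed the threshold, against a background of 33.7% of all tested probe sets. Of these 18 were higher in hippocampus (background 22.3%) and 19 lower (background 11.4%). On the ipsilateral side 29 probe sets (39.7%), from 23 genes, passed (background 27.5%), 13 higher (background 16.7%) and 16 lower (background 10.8%). The median absolute log2 difference of the Kcn probe sets was 0.41 contralaterally and 0.38 ipsilaterally, beside 0.25 and 0.25 over all tested probe sets.

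The contralateral and ipsilateral regional comparisons share no arrays, but the labels do not say whether they share animals. Of the probe sets called, 22 were called on both sides and in the same direction, 7 higher and 15 lower in hippocampus, which is 59.5% of the contralateral and 75.9% of the ipsilateral calls. Over all tested probe sets the calls shared in direction were 47.7% and 58.5% of the respective calls. No Kcn probe set was called in opposite directions. The split by direction depended on scaling. With quantile normalization 8 probe sets were higher and 21 lower on the contralateral side, and the median difference over all tested probe sets moved from 0.11 to 0.01. The signals of the 2 regions did not overlap for 9 called probe sets contralaterally (12.3% of the 73, background 5.74%) and 13 ipsilaterally (17.8%, background 8.12%).

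**Figure D1:**
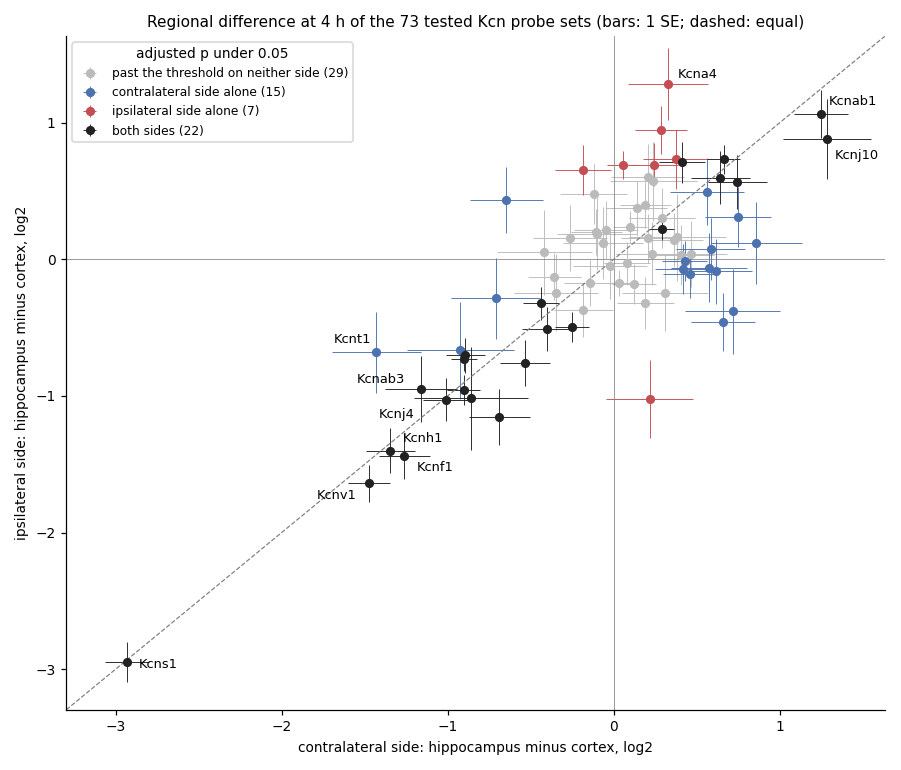
Hippocampus minus cortex at 4 h on the contralateral side (x axis) and the ipsilateral side (y axis), in log2 units, for the 73 tested Kcn probe sets, with bars of 1 SE and colours for the side or sides on which a probe set passed the threshold. Kcns1 lies at -2.93 and -2.95, and the 22 probe sets called on both sides lie at the lower left and upper right.

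Kcns1, a silent subunit, had signals of 1120, 1474 and 1938 (lowest, median, highest) in contralateral cortex and 1242, 1569 and 2410 in ipsilateral cortex at 4 h. In hippocampus they were 53.5, 134 and 229 contralaterally and 65.9, 147 and 295 ipsilaterally. Cortical and hippocampal arrays did not overlap, and hippocampal signal exceeded the floor on 1 of 9 contralateral and 2 of 7 ipsilateral arrays. The log2 difference was -2.93 (SE 0.13, adjusted p = 1.82e-23) contralaterally and -2.95 (SE 0.14, adjusted p = 7.94e-22) ipsilaterally. Most hippocampal arrays entered at the floor, so these sizes, 7.63-fold and 7.72-fold, understate the difference in signal.

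Kcnv1, another silent subunit, had signals of 2150, 3157 and 3746 in contralateral cortex at 4 h and 728, 989 and 1408 in contralateral hippocampus. The ipsilateral values were 2342, 2766 and 3821 in cortex and 778, 932 and 1129 in hippocampus. No hippocampal array reached the lowest cortical one. The differences were -1.47 (SE 0.12, adjusted p = 1.6e-13) and -1.64 (SE 0.14, adjusted p = 1.66e-13). Kcnf1, also silent, was lower by the same measure, at -1.26 (SE 0.15) contralaterally and -1.44 (SE 0.17) ipsilaterally. Its signals in ipsilateral tissue were 1410, 2700 and 3659 in cortex and 796, 902 and 1240 in hippocampus.

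The other 2 of the 5 tested silent subunits behaved otherwise. Kcng1 was higher in hippocampus, by 0.64 (SE 0.18, adjusted p = 0.00403) and 0.60 (SE 0.20, adjusted p = 0.018). Kcns3, the other Kcns gene, differed by -0.07 (95% interval -0.55 to 0.42) contralaterally and 0.12 (95% interval -0.41 to 0.66) ipsilaterally and was not called. For the 5 silent subunits no call was made in any comparison of side or time.

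The promoters of 2 genes lower in hippocampus on both sides, Kcns1 and Kcnf1, and of 2 genes higher there on both sides, Kcnab1 and Kcnj10, are shown as the 250 bases before the annotated start in RefSeq (build GRCr8), read 5′ to 3′ on the gene's strand. Capitals mark a GC box (GGGCGG) or an E-box (CANNTG) on either strand.
Kcns1 promoter (chr3:173262347-173262596, reverse strand): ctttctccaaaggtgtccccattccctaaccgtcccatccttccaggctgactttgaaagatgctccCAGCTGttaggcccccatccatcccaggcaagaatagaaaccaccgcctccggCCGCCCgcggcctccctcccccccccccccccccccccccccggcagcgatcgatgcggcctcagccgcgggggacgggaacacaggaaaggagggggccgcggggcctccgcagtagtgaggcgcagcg
Kcnf1 promoter (chr6:45693707-45693956, reverse strand): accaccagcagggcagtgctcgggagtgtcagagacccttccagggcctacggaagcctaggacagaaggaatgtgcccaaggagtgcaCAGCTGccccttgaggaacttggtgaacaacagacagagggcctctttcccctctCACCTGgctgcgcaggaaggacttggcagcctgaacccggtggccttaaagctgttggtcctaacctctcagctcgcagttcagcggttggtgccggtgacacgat
Kcnab1 promoter (chr2:151614301-151614550, forward strand): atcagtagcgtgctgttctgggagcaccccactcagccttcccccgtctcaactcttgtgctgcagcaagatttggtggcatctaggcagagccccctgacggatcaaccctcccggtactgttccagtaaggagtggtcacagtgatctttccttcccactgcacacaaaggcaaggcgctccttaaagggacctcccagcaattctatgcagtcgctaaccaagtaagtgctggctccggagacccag
Kcnj10 promoter (chr13:87334260-87334509, forward strand): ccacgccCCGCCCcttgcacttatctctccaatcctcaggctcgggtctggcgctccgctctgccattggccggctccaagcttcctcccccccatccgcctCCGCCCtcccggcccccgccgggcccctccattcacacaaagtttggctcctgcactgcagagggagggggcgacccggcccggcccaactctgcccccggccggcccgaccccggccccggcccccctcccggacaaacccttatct
The Kcns1 window held 1 GC box and 1 E-box, that of Kcnf1 held 2 E-boxes and no GC box, that of Kcnj10 held 2 GC boxes and no E-box, and that of Kcnab1 held neither. A GC box was present in 30.5% of the 33469 windows of this length in the table and in 22 of the 44 windows of Kcn genes (50%), and an E-box in 65.5% and in 24 of 44 (54.5%). A TATA box (TATAAA) was in 12.9% of all windows and 2 of the 44, and a cAMP response element (TGACGTCA) in 1.59% and 0 of the 44; neither was in the 4 shown. All motifs were searched on both strands, and a GC box and an E-box may share bases. GC content was 68.8% for Kcns1, 59.6% for Kcnf1, 56% for Kcnab1 and 72.4% for Kcnj10, beside a median of 51.2%. These matches describe letters only, and 40 of the 54 Kcn genes had an entry.

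Kcnab1, a cytoplasmic subunit that speeds the inactivation of Kcna channels, had signals of 718, 1499 and 1781 in contralateral cortex at 4 h and 2722, 3087 and 3620 in contralateral hippocampus. Ipsilateral signals were 561, 1216 and 1672 in cortex and 1731, 2009 and 3460 in hippocampus. The groups did not overlap on either side, and the differences were 1.25 (SE 0.16, adjusted p = 2.79e-08) and 1.06 (SE 0.18, adjusted p = 7.15e-06). The 3 genes of this subfamily went different ways. Both Kcnab2 probe sets were higher in hippocampus on both sides, by 0.23 to 0.73, whereas Kcnab3 was lower, at -1.16 (SE 0.22) contralaterally and -0.95 (SE 0.24) ipsilaterally.

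Among the 10 tested Kcnh probe sets, which belong to the ether-a-go-go, erg and elk channels, 4 were lower and 3 higher in contralateral hippocampus, and 5 were lower and none higher ipsilaterally. The background was 11.4% lower and 22.3% higher contralaterally, and 10.8% lower and 16.7% higher ipsilaterally. Kcnh1 had signals of 3893, 5173 and 6206 in ipsilateral cortex and 1637, 1864 and 2521 in ipsilateral hippocampus at 4 h, which did not overlap. Contralaterally they were 2260, 4618 and 5794 in cortex and 882, 1949 and 2349 in hippocampus, where the lowest cortical array, 11, lay within the hippocampal range. The differences were -1.34 (SE 0.15, adjusted p = 4.08e-10) contralaterally and -1.40 (SE 0.16, adjusted p = 2.42e-09) ipsilaterally. Both Kcnh3 probe sets, of an elk channel, and Kcnh4 were called lower on both sides.

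Of 20 tested inward rectifier probe sets, 5 were higher and 5 lower in contralateral hippocampus, and 2 higher and 4 lower ipsilaterally. The background was 22.3% higher and 11.4% lower contralaterally, and 16.7% higher and 10.8% lower ipsilaterally. Kcnj4, a strong inward rectifier of forebrain neurons, was lower on both of its probe sets and both sides, with differences from -1.03 to -0.70 and no overlap of arrays. Kcnj11, the pore of the ATP-sensitive channel, was also lower on both probe sets and both sides, with differences of -0.25 and -0.53 contralaterally and -0.49 and -0.76 ipsilaterally. Kcnj9, a G-protein-gated subunit, was lower contralaterally (-0.92, SE 0.32, adjusted p = 0.0225), and its ipsilateral difference of -0.67 was not called.

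Kcnj10, the inward rectifier through which astrocytes clear potassium, had the largest upward regional difference among the inward rectifiers called, on probe set U27558_at. Its signals were 238, 756 and 1755 in contralateral cortex and 1140, 1803 and 2475 in contralateral hippocampus at 4 h. Ipsilateral cortex gave 467, 1003 and 1357, and ipsilateral hippocampus 1138, 1557 and 2508. The cortical and hippocampal ranges overlapped on both sides. The regional differences were 1.28 (SE 0.27, adjusted p = 0.000166) contralaterally and 0.88 (SE 0.29, adjusted p = 0.0197) ipsilaterally. The second probe set, X83585cds_s_at, gave 0.75 (SE 0.20, adjusted p = 0.00285) and 0.31 (SE 0.22, adjusted p = 0.323). The ipsilateral call of U27558_at was lost without array 7 of cortex (0.72, adjusted p = 0.0624) or array 17 of hippocampus (0.78, adjusted p = 0.0511).

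Among astrocyte markers 8 of 10 listed genes were measured, of which 2 were higher and 1 lower in contralateral hippocampus, and 2 higher and 2 lower ipsilaterally. The background was 22.3% higher and 11.4% lower contralaterally, and 16.7% higher and 10.8% lower ipsilaterally. Aqp4, the astrocytic water channel, was higher by 1.42 (SE 0.18) and 1.86 (SE 0.20), and Gja1 by 0.79 (SE 0.12) and 0.89 (SE 0.13). The list as a whole did not follow these 2, with a median difference of -0.02 contralaterally and -0.10 ipsilaterally over the 8 markers. The mean log2 level of the list lay between 12.9 and 13.3 on cortical arrays at 4 h and between 13.1 and 13.5 on hippocampal arrays. The part of astrocyte content in the Kcnj10 result was not tested. Kcnj16, which joins Kcnj10 in heteromeric channels, was called higher on 1 of its probe sets on each side, a different one each time (X83581cds_at 0.56, SE 0.22, and rc_AA892312_at 0.73, SE 0.22).

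The remaining voltage-gated pore subunits gave 3 higher and 2 lower calls among 22 tested probe sets contralaterally and 7 higher and 1 lower ipsilaterally. Over all tested probe sets 22.3% were higher and 11.4% lower contralaterally, and 16.7% and 10.8% ipsilaterally. Kcna4, an A-type channel subunit, was called higher in ipsilateral hippocampus on both probe sets, by 1.28 (SE 0.27) and 0.95 (SE 0.17), and on neither contralaterally (0.33 and 0.29). Kcnd2, the main somatodendritic A-type subunit, was higher ipsilaterally on both probe sets, by 0.69 (SE 0.10) and 0.71 (SE 0.15), with no overlap of arrays. Contralaterally Kcnd2 was called higher on S64320_at (0.41, adjusted p = 0.0171) and not on M59980_s_at (0.05). Kcnc1, typical of fast-firing neurons, was lower on both sides, at -0.44 (SE 0.11) and -0.32 (SE 0.12). Kcna1 was lower contralaterally on M26161_at (-0.65, adjusted p = 0.019), while its second probe set (-0.36) was not called, and neither was called ipsilaterally. Kcnc2 was higher ipsilaterally on M84203_s_at alone of its 4 tested probe sets (0.69, adjusted p = 0.000678). Kcnd3 was higher ipsilaterally on rc_AI230211_s_at alone of 3 (0.65, adjusted p = 0.00578).

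Kcnt1, a sodium-activated channel, had signals of 178, 709 and 1146 in contralateral cortex and 68.6, 128 and 491 in contralateral hippocampus at 4 h. Only 3 of 9 hippocampal arrays exceeded the floor, and the difference was -1.43 (SE 0.27, adjusted p = 3.62e-05). Ipsilaterally the signals were 196, 600 and 864 against 201, 324 and 596, and the difference of -0.68 was not called. Kcnk1, a tandem-pore channel, had signals of 5449, 5827 and 6992 in contralateral cortex and 2800, 3397 and 3753 in contralateral hippocampus. It was lower without overlap on both sides, at -0.90 (SE 0.08) and -0.73 (SE 0.09).

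With the Gapdh ratio as a term, added after the data were seen, the regional calls were 23 contralaterally and 26 ipsilaterally, beside 23.3% and 23.5% of all tested probe sets. With each array's 10th percentile of signal as a term they were 28 (12 higher and 16 lower) and 30, beside 32.2% and 24.4%. Under the Gapdh term Kcnc1 lost both calls, at -0.27 (adjusted p = 0.135) and -0.22 (adjusted p = 0.218), and Kcnh4 its contralateral one, at -0.41 (adjusted p = 0.173). Kcnj9 (adjusted p = 0.0854 and 0.0622) and contralateral Kcnj16 (adjusted p = 0.0542 and 0.0843) lost theirs under either term. Kcnj11 on D86039_at lost its contralateral call under the Gapdh term (adjusted p = 0.0778), and Kcnh3 on AF073892_s_at its ipsilateral one under the 10th percentile term (-0.34, adjusted p = 0.12). Kcnj10 under the Gapdh term gave 0.62 (adjusted p = 0.138) ipsilaterally on U27558_at and 0.56 (adjusted p = 0.0896) contralaterally on X83585cds_s_at. The 7 interneuron markers listed, Pvalb, Gad1, Gad2, Calb1, Sst, Scn1a and Syt2, are not confined to fast-spiking cells, and all were measured. Of these, 5 were lower and 1 higher in contralateral hippocampus and 3 lower and 1 higher ipsilaterally. The background was 11.4% lower and 22.3% higher contralaterally, and 10.8% lower and 16.7% higher ipsilaterally. Pvalb differed by -1.38 (SE 0.10) and -0.86 (SE 0.11). The part of cell composition in the Kcn differences between regions was not tested.

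**Figure D2:**
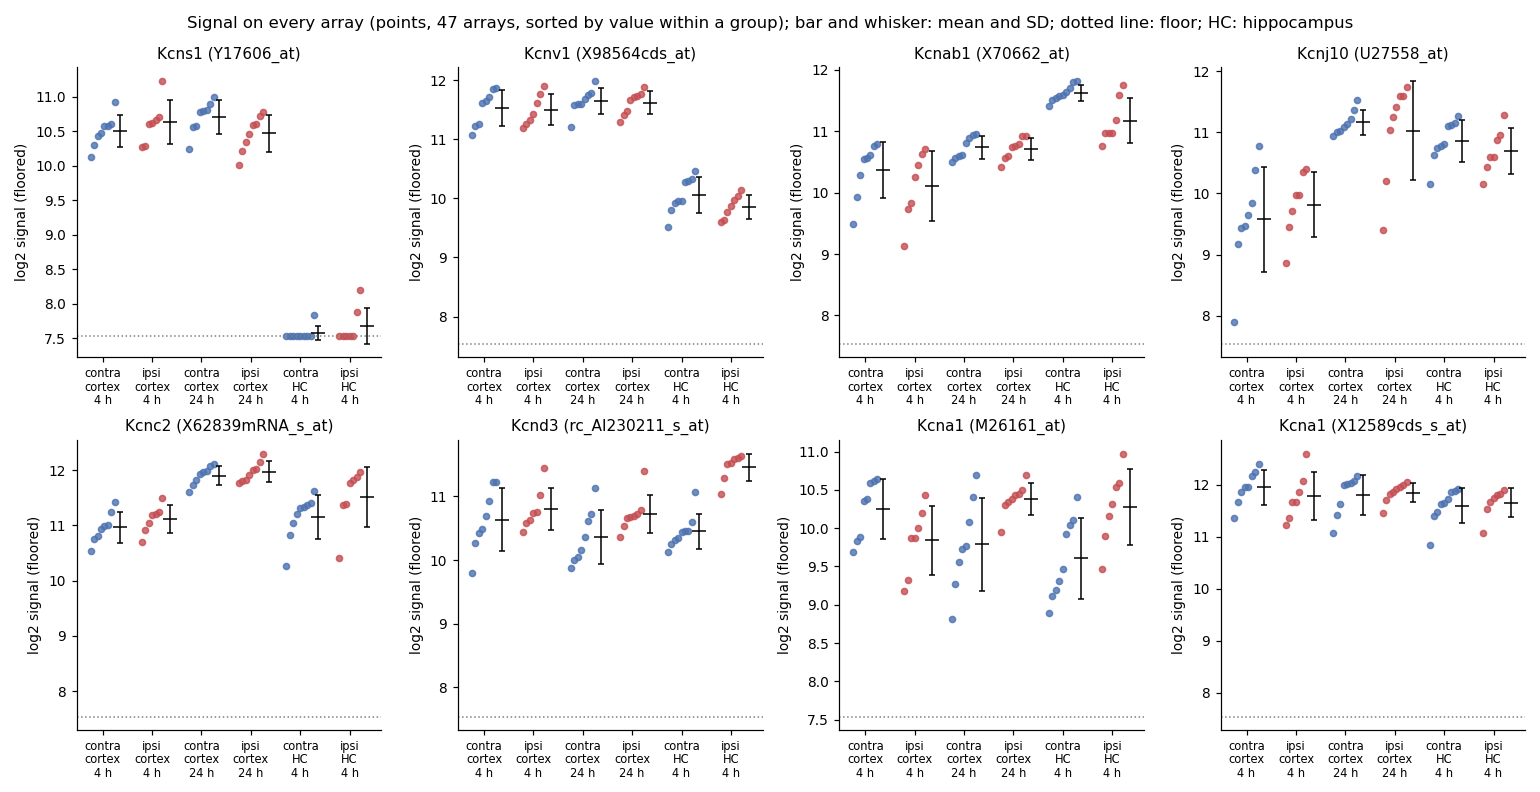
Log2 signal, with values under the floor raised to it, on all 47 arrays for 8 Kcn probe sets; each point is 1 array, sorted by value within its group, the bar and whisker give the mean and SD, and the dotted line is the floor. Kcns1 and Kcnv1 are lower and Kcnab1 is higher in hippocampus, Kcnj10 and Kcnc2 are higher in cortex at 24 h than at 4 h, and the 2 Kcna1 probe sets differ from each other.

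In cortex a share of Kcn probe sets near the background differed between 4 h and 24 h on both sides, mostly upwards. Higher at 24 h on at least 1 probe set were Kcnj10, Kcnc2, Kcnc4, Kcna2, Kcna6, Kcnh7 and the calcium-activated channel Kcnma1. Kcnc2 and Kcnc4 are subunits that let neurons fire fast. With the Gapdh ratio as a term Kcnc4, Kcna6 and Kcnma1 kept no call on either side. In contralateral cortex 18 probe sets (24.7%), from 13 genes, passed against a background of 21.5%, 15 higher (background 13.2%) and 3 lower (background 8.25%). In ipsilateral cortex 14 (19.2%), from 11 genes, passed against 19.3%, 12 higher (background 11.4%) and 2 lower (background 7.92%). The share called is near the background on both sides. The median difference was 0.13 on each side, beside 0.04 contralaterally and 0.03 ipsilaterally over all tested probe sets.

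These 2 comparisons share no arrays with each other, but both share their 4 h cortical arrays with the regional comparisons. Whether the 2 share animals is not in the labels. Of the calls 12 were shared and in the same direction, 10 higher and 2 lower at 24 h, which is 66.7% of the contralateral and 85.7% of the ipsilateral calls, beside 57.9% and 64.3% over all tested probe sets. Groups did not overlap for 3 contralateral calls (4.11%, background 3.65%) and 2 ipsilateral calls (2.74%, background 3.47%). The counts moved with the Gapdh ratio. With it as a term 6 contralateral and 5 ipsilateral probe sets passed, 6 and 3 of which had passed without it. Over all tested probe sets the share called fell likewise, from 21.5% to 8.01% and from 19.3% to 9.82%. The 6 contralateral calls that kept the threshold were Kcnj10 on U27558_at, Kcnc2 on X62839mRNA_s_at and M84203_s_at, Kcnh7, Kcnj12 and Kcnj4, and the 3 ipsilateral ones were the same Kcnc2 probe sets and Kcna2. With each array's 10th percentile of signal as a term 19 and 18 passed, beside 25.4% and 21.6% of all. With quantile normalization 10 ipsilateral probe sets were higher and 5 lower.

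Kcnj10 on U27558_at had signals of 238, 756 and 1755 in contralateral cortex at 4 h and 1967, 2210 and 2948 at 24 h, without overlap. Ipsilateral signals were 467, 1003 and 1357 at 4 h and 677, 2575 and 3422 at 24 h, where array 34 gave the lowest value. The differences were 1.58 (SE 0.27, adjusted p = 2.94e-05) contralaterally and 1.21 (SE 0.28, adjusted p = 0.0016) ipsilaterally, and 1.44 (adjusted p = 6.61e-05) without array 34. The second probe set, X83585cds_s_at, had signals of 510, 736 and 1064 at 4 h and 984, 1322 and 1708 at 24 h contralaterally, where the ranges overlapped. It gave 0.91 (SE 0.21) and 0.72 (SE 0.21, adjusted p = 0.0119), the latter lost without array 6 (0.51, adjusted p = 0.0629). With the Gapdh ratio as a term the ipsilateral difference of U27558_at was 0.83 (adjusted p = 0.0835). Of the 8 astrocyte markers, Aqp4 rose by 1.20 (SE 0.19) contralaterally and 1.5 (SE 0.19) ipsilaterally, while 2 contralateral and 1 ipsilateral marker fell. The median difference over the 8 was -0.12 contralaterally and -0.15 ipsilaterally. Over all tested probe sets 13.2% were called higher and 8.25% lower contralaterally, and 11.4% and 7.92% ipsilaterally.

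Kcnc2, a subunit of the channels that let fast-spiking interneurons repolarise quickly, was called on 3 of 4 probe sets contralaterally and 2 of 4 ipsilaterally. On X62839mRNA_s_at its signals were 1489, 1995 and 2758 in contralateral cortex at 4 h and 3132, 3936 and 4408 at 24 h. Ipsilateral signals were 1653, 2321 and 2887 at 4 h and 3496, 3976 and 5042 at 24 h. Every array at 24 h lay above every array at 4 h on both sides.

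The Kcnc2 differences on that probe set were 0.94 (SE 0.16, adjusted p = 1.97e-05) contralaterally and 0.86 (SE 0.16, adjusted p = 0.000152) ipsilaterally, and with the Gapdh ratio as a term the ipsilateral value was 0.64 (adjusted p = 0.018). M84203_s_at rose from 638, 969 and 1238 to 1405, 1565 and 1850 contralaterally, by 0.76 (SE 0.15), and by 0.80 (SE 0.15) ipsilaterally. M59211_at passed contralaterally only narrowly (0.55, SE 0.21, adjusted p = 0.0492) and lost the call in 10 of 16 fits that left out 1 array. M59313_at gave 0.19 (95% interval -0.27 to 0.65) and -0.22 (95% interval -0.69 to 0.26) and was not called. Of 7 interneuron markers, 3 rose and 1 fell contralaterally and 2 rose and 1 fell ipsilaterally. Over all tested probe sets 13.2% rose and 8.25% fell contralaterally, and 11.4% and 7.92% ipsilaterally. Gad2, a GABA-synthesising enzyme, rose by 0.78 and 0.50, and Pvalb differed by -0.23 and -0.05 and was not called.

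Kcnma1, the large-conductance calcium-activated channel, was near the floor at 4 h on U40603_at, with 2 of 8 contralateral and 2 of 7 ipsilateral arrays above it. All 8 contralateral and 7 of 8 ipsilateral arrays exceeded it at 24 h. Signals rose from 54.8, 111 and 432 to 355, 418 and 619 contralaterally and from 57.6, 151 and 468 to 21.9, 526 and 660 ipsilaterally, where 21.9 is array 34. The differences were 0.996 (SE 0.27, adjusted p = 0.00573) and 1.05 (SE 0.28, adjusted p = 0.00557), and with the Gapdh ratio as a term 0.67 (adjusted p = 0.229) and 0.79 (adjusted p = 0.113). AF083341_s_at rose contralaterally (0.58, SE 0.17, adjusted p = 0.0115), and the other 2 Kcnma1 probe sets were not called, at 0.06 and 0.40.

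Kcna2, an axonal subunit, rose by 0.75 (SE 0.19, adjusted p = 0.00304) and 0.82 (SE 0.20, adjusted p = 0.00201). Its signals at 4 h were 31.1, 188 and 344 contralaterally and 77.8, 168 and 285 ipsilaterally, and at 24 h 247, 405 and 612 and 167, 384 and 501. Kcna6 rose by 0.71 and 0.55 on M27159cds_s_at, Kcnc4 by 0.56 and 0.47, and Kcnh7 by 0.72 and 0.55. Kcnh3 fell by 0.32 and 0.42 on AJ007627_at. The second tested probe sets of Kcna6 (0.08 and 0.30) and Kcnh3 (0.07 and -0.05) were not called. With the Gapdh ratio as a term, Kcnc4 gave 0.30 (adjusted p = 0.116) and 0.25 (adjusted p = 0.157), and Kcna6 lost both calls (adjusted p = 0.131 and 0.232), as did Kcnh3. Kcnh7 lost its ipsilateral call (adjusted p = 0.089) and Kcna2 its contralateral one (adjusted p = 0.108). Kcnab2 was called in both directions: X76724_at rose by 0.38 (SE 0.10) and 0.29 (SE 0.10), and rc_H33656_at fell by 0.24 (SE 0.08) and 0.41 (SE 0.08). None of these 4 calls held with the Gapdh ratio as a term, where rc_H33656_at gave 0.04 (adjusted p = 0.801) contralaterally, with the sign turned, and -0.18 (adjusted p = 0.069) ipsilaterally, and X76724_at gave adjusted p-values of 0.141 and 0.255. Kcnj12, a strong inward rectifier, rose contralaterally by 0.78 (SE 0.18, adjusted p = 0.0014) and differed by 0.03 (95% interval -0.36 to 0.41) ipsilaterally.

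**Figure D3:**
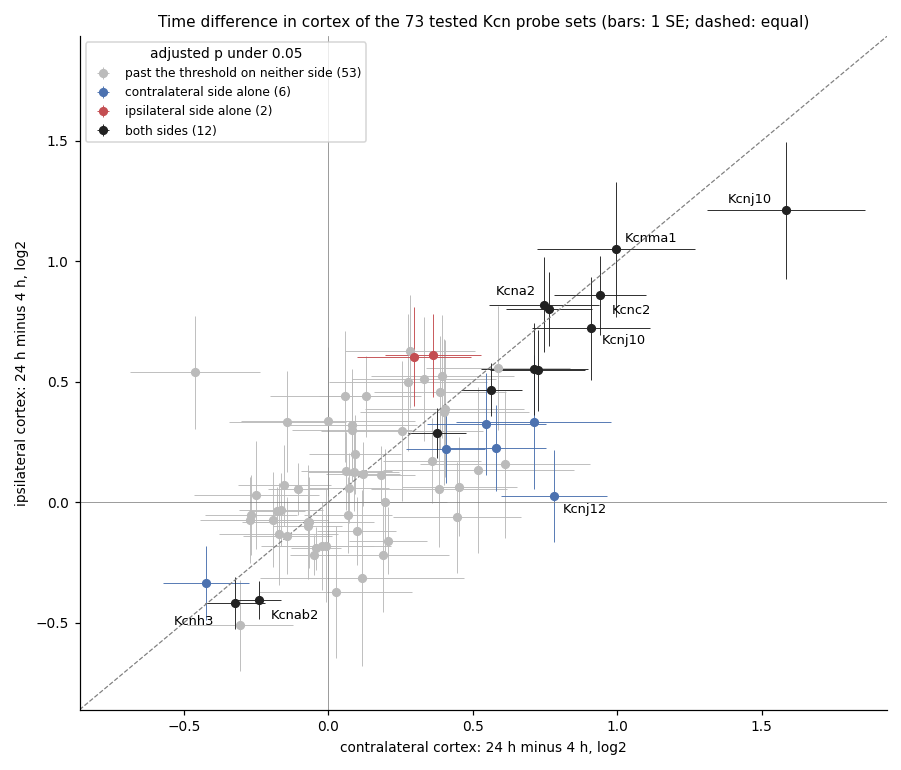
Difference between 24 h and 4 h in contralateral cortex (x axis) and ipsilateral cortex (y axis), in log2 units, for the 73 tested Kcn probe sets, with bars of 1 SE and colours for the side or sides on which a probe set passed the threshold. Kcnj10 lies farthest out at 1.58 and 1.21, and 10 of the 12 probe sets called on both sides were higher at 24 h.

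Between the sides of the cortex, no Kcn probe set passed the threshold at 4 h (limma; background 0%) or at 24 h (background 0.107%). At an unadjusted p under 0.05 there were 4 and 6 of the 73, beside 558 and 575 of the 7503 tested. The smallest p-values at 4 h belonged to Kcnj12 (0.69, SE 0.19, adjusted p = 0.217), the erg channel Kcnh2 on Z96106_at (0.43, SE 0.19) and Kcnh4 (-0.43). Kcnj12 signals were 55.1, 214 and 294 contralaterally and 227, 390 and 505 ipsilaterally, with overlapping ranges. Kcnh2 signals were 694, 952 and 1375 against 1035, 1323 and 1560, and those of Kcnh4 were 448, 1083 and 1602 against 555, 771 and 983. At 24 h the smallest p-values belonged to Kcnk1 (-0.22, SE 0.08, adjusted p = 0.413), Kcna1 on M26161_at (0.59, SE 0.23, adjusted p = 0.455) and Kcnab2 on X76724_at (-0.24).

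Kcnk1 signals at 24 h were 5171, 5792 and 7053 contralaterally and 4177, 5157 and 5804 ipsilaterally, which overlapped. Those of Kcna1 on M26161_at were 449, 860 and 1660 against 990.5, 1353 and 1657, and those of Kcnab2 were 2217, 2600 and 3187 against 1570, 2365 and 2626, again overlapping. For Kcns1 the side difference was 0.13 (95% interval -0.16 to 0.41) at 4 h and -0.24 (95% interval -0.51 to 0.03) at 24 h. For Kcnj10 it was 0.24 (95% interval -0.33 to 0.81) and -0.13 (95% interval -0.68 to 0.42). The change of the cortical side difference from 4 h to 24 h passed for no Kcn probe set (limma; background 0%), with 2 of 73 and 421 of 7503 at an unadjusted p under 0.05. The smallest p-values were those of Kcna1 on M26161_at (1.0, SE 0.32, adjusted p = 0.737) and Kcnj12 (-0.75, SE 0.26, adjusted p = 0.737). Between the sides of the cortex at 24 h 1 of 9 microglia and macrophage markers was called (background 0.107%), Spp1, at 2.59 (SE 0.58).

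In hippocampus at 4 h, 13 Kcn probe sets (17.8%), from 12 genes, differed between the sides, against a background of 16.1%, so the share called is near the background. The 4 that were higher ipsilaterally (background 5.32%) were 1 probe set each of Kcnd3, Kcna4, Kcna1 and Kcnd2. The 9 that were lower (background 10.8%) were Kcnh5, Kcnh4, Kcnh8, Kcnh2, 2 probe sets of Kcnj1, Kcnk5, Kcne1 and Kcnmb1. With each array's 10th percentile of signal as a term none of the 13 passed, and the calls over all probe sets fell from 1207 to 5. Of the markers, none of 8 astrocyte genes was called, 1 of 7 interneuron genes was higher (Pvalb, 0.43, SE 0.11), 1 of 9 neuronal genes was higher and 2 of 6 endothelial genes were lower; their part in the result was not tested. With quantile normalization 5 Kcn probe sets were higher and 6 lower, and the count was 8 without ipsilateral array 19 and 8 without ipsilateral array 21.

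Kcnd3, a somatodendritic A-type subunit, had signals of 1123, 1388 and 2147 in contralateral and 2094, 2950 and 3177 in ipsilateral hippocampus on rc_AI230211_s_at. Only the highest contralateral array, 32, reached into the ipsilateral range. The difference was 1.01 (SE 0.17, adjusted p = 0.000341), and 0.82 (SE 0.20, adjusted p = 0.0828) with the 10th percentile as a term. The other 2 Kcnd3 probe sets gave -0.44 (95% interval -0.91 to 0.04) and -0.45 (95% interval -0.99 to 0.09) and were not called. Kcnd2 on M59980_s_at had signals of 2264, 2620 and 3494 contralaterally and 3587, 3663 and 4256 ipsilaterally, without overlap (1.37% of the Kcn probe sets, background 1.51%), and was higher by 0.45 (SE 0.10, adjusted p = 0.00194). With the 10th percentile as a term it gave 0.34 (adjusted p = 0.239). The second Kcnd2 probe set, S64320_at, gave 0.19 (95% interval -0.09 to 0.48) and was not called.

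Kcna1, an axonal subunit that limits repetitive firing, had signals of 475, 706 and 1352 contralaterally and 707, 1280 and 2011 ipsilaterally on M26161_at. The ranges overlapped widely, and the difference of 0.67 (SE 0.23, adjusted p = 0.0367) lost its call in 9 of 16 fits that left out 1 array. On X12589cds_s_at the signals were 1829, 3216 and 3854 against 2158, 3433 and 3786, and the difference was 0.05 (95% interval -0.28 to 0.38). Kcna4 was higher by 0.76 (SE 0.25, adjusted p = 0.0323) on X16002cds_s_at, with signals of 398, 796 and 1027 against 822, 1253 and 1464.

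Among the lower members, Kcnh5, an ether-a-go-go channel, had signals of 298, 511 and 778 contralaterally and 116, 187 and 354 ipsilaterally. Its difference was -1.18 (SE 0.27, adjusted p = 0.00279), and -0.41 (SE 0.23, adjusted p = 0.582) with the 10th percentile as a term. Kcnj1, best known as a kidney channel, gave 416, 688 and 848 against 243, 298 and 530 on AF081365_s_at, a difference of -0.91 (SE 0.20, adjusted p = 0.00208). Kcnh4 gave 468, 640 and 792 against 251, 330 and 643, a difference of -0.89 (SE 0.19, adjusted p = 0.00184). Kcnk5, a tandem-pore channel, gave 157, 358 and 675 against 35.7, 48.7 and 268, near the floor ipsilaterally. Its difference of -0.81 (SE 0.21) was -0.80 (SE 0.25, adjusted p = 0.239) with that term.

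**Figure D4:**
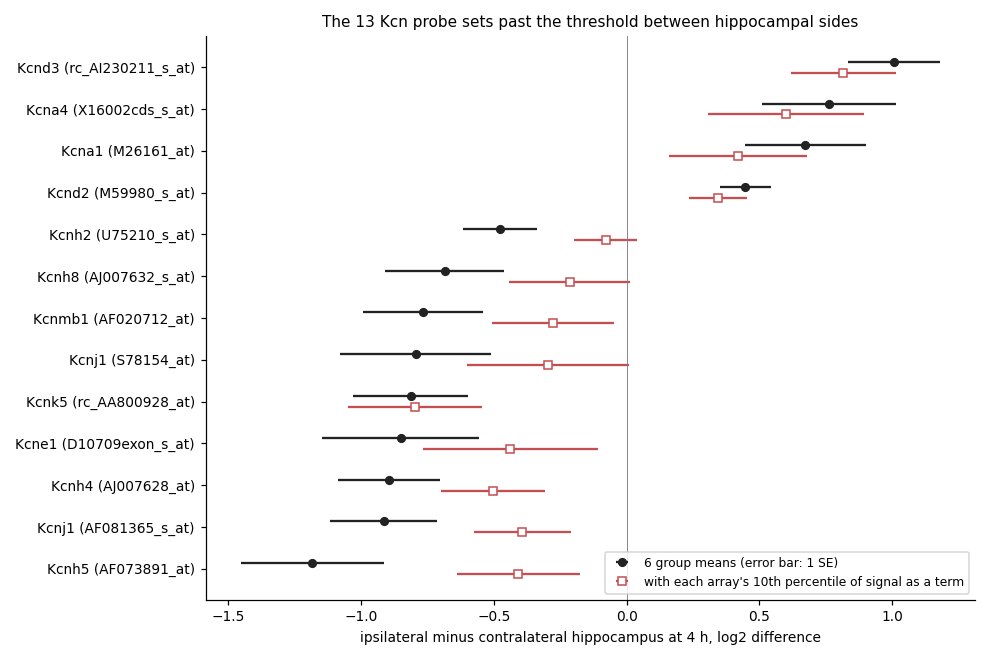
Ipsilateral minus contralateral hippocampus at 4 h, in log2 units, for the 13 Kcn probe sets past the threshold: filled circles from the model of 6 group means and open squares with each array's 10th percentile of signal as a term, bars of 1 SE. Kcnh5 moves from -1.18 to -0.41, Kcnd3 from 1.01 to 0.82 and Kcnk5 from -0.81 to -0.80.

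The hippocampal side difference exceeded the cortical one at 4 h for 4 Kcn probe sets (5.48%; background 4.18%), 3 in the upward direction (background 1.08%) and 1 in the downward direction (background 3.11%). They were Kcnd2 on M59980_s_at (0.64, SE 0.14, adjusted p = 0.00858), Kcnd3 on rc_AI230211_s_at (0.84, SE 0.25, adjusted p = 0.0426), Kcna1 on M26161_at (1.08, SE 0.33, adjusted p = 0.0446) and Kcnj1 on AF081365_s_at (-1.12, SE 0.29, adjusted p = 0.0225). In cortex at 4 h the side difference was 0.17 for Kcnd3, -0.41 for Kcna1 and -0.19 for Kcnd2, none of them called. Pvalb, the parvalbumin of interneurons, was also called in this comparison (0.52, SE 0.15). This term equals the difference between the ipsilateral and contralateral regional contrasts, so it also tests those. Kcna4, called in the ipsilateral regional contrast alone, was not called here, and neither was Kcnt1. Kcnd2 on S64320_at gave 0.30 (95% interval -0.11 to 0.71) and was not called. None of the 4 passed with the 10th percentile as a term. The count ranged from 1 to 7 when 1 array was left out, with 1 without array 6 and 7 without array 14, and it was 2 with unfiltered probe sets. Calls were lost without array 6 for Kcnj1 (-0.99, adjusted p = 0.0516), in 18 of 31 leave-one-out fits for Kcnd3 and in 20 of 31 for Kcna1, and in none for Kcnd2.

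Where several probe sets of a gene were tested, they often gave different calls. This applied to 17 genes. In the contralateral regional contrast 13 of them had a call, 5 had the same call on every probe set, and Kcnma1 was called in both directions (AF083341_s_at 0.42, U93052_s_at -0.71), though neither call held with the Gapdh ratio or the 10th percentile as a term. In the ipsilateral regional contrast 6 of 11 had the same call on all. In the hippocampal side comparison 7 had a call and none had it on every probe set. For time, 1 gene of 8 contralaterally and 1 of 7 ipsilaterally had the same call throughout. Kcnd3 on M74898cds_s_at was called higher in contralateral hippocampus (0.58, adjusted p = 0.0457) where rc_AI230211_s_at gave -0.18, and lost that call in 12 of 17 fits that left out 1 array.

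In the gene order of RefSeq (GRCr8), 7 pairs of Kcn genes are direct protein-coding neighbours. Kcnj9 and Kcnj10 are such a pair, called in opposite directions in contralateral hippocampus, at -0.92 and 1.28. Kcna1 and Kcna6 are another, where Kcna6 rose with time on both sides on M27159cds_s_at and Kcna1 was called on neither probe set, at -0.15 and 0.07 on X12589cds_s_at. Of the Kcna2 and Kcna3 pair, Kcna2 was called with time on both sides, and Kcna3 gave 0.40 and 0.52 and was not called.

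Genes that act on the same channels or gradient were followed beside them. Of 21 listed channel partners 12 were measured. With time 4 rose and none fell contralaterally, and 4 rose and 1 fell ipsilaterally, where 13.2% and 8.25% of all tested probe sets rose and fell contralaterally and 11.4% and 7.92% ipsilaterally. The scaffolds Dlg1 and Dlg2, which anchor Kcna and Kcnj channels, rose by 0.91 and 0.85 contralaterally and by 0.86 and 0.83 ipsilaterally, while Ank3, which places channels at the axon initial segment, fell by 0.57 (SE 0.10) ipsilaterally. Between regions 4 partners were higher and 2 lower in contralateral hippocampus, and 2 higher and 2 lower ipsilaterally, where 22.3% and 11.4% of all were higher and lower contralaterally and 16.7% and 10.8% ipsilaterally. Dpp6, the partner that brings Kcnd channels to the surface, was higher by 0.67 (SE 0.11) and 0.91 (SE 0.12). In hippocampus 2 partners, Cntn1 (-0.62) and Abcc9 (-0.54), were lower ipsilaterally, where 10.8% of all tested probe sets were lower. Both calls are given without adjusting for the arrays' 10th percentiles, which left 5 calls among all tested probe sets in that comparison.

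Of 20 listed potassium pumps and cotransporters 12 were measured. In contralateral hippocampus 5 were higher and 2 lower than in cortex, and ipsilaterally 2 were higher and 1 lower, against the same shares of all (22.3% and 11.4%, 16.7% and 10.8%). Atp1b1, a subunit of the sodium pump, was lower in hippocampus, at -0.25 (SE 0.05) and -0.46 (SE 0.06), and Slc12a5, the neuronal chloride extruder, was lower contralaterally (-0.58, SE 0.09). With time 3 of the 12 rose and 1 fell contralaterally and 2 rose and 1 fell ipsilaterally, beside 13.2% and 8.25%, and 11.4% and 7.92%, of all. Atp1b1 fell by 0.31 and 0.43, and Slc12a2, which imports chloride with potassium, rose by 0.39 and 0.29. Between hippocampal sides 2 were lower ipsilaterally, Fxyd1 (-0.55, SE 0.12) and Atp4a (-0.85, SE 0.22), beside 10.8% of all tested probe sets. Adjusting for each array's 10th percentile cut the number of calls among all tested probe sets from 1207 to 5. The Fxyd1 and Atp4a calls are given without this adjustment.

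Spread between arrays differed by time. The median SD of the Kcn probe sets within a group was 0.40 in ipsilateral and 0.41 in contralateral cortex at 4 h, and 0.30 and 0.29 at 24 h, on the log2 scale. In hippocampus it was 0.35 and 0.34. The comparisons of cortex at 4 h thus rest on wider groups than those at 24 h. The model used a common estimate of the spread for all groups, so the p-values do not reflect this difference.

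The other cell type markers were counted in the same comparisons. Between regions 22.3% of all tested probe sets were called higher and 11.4% lower contralaterally, and 16.7% and 10.8% ipsilaterally. With time 13.2% rose and 8.25% fell contralaterally, and 11.4% and 7.92% ipsilaterally. Neuronal markers (9 measured) gave 1 higher and 2 lower calls between regions contralaterally, 2 and 3 ipsilaterally, and 2 higher and 1 lower with time on each side. Of 7 oligodendrocyte markers, 4 were higher and 1 lower in ipsilateral hippocampus and none was called contralaterally, while 2 fell with time contralaterally and 1 ipsilaterally. Of 9 microglia and macrophage markers, 1 was higher in hippocampus on each side, 2 rose with time ipsilaterally and 1 fell contralaterally. Of 6 endothelial markers 1 was lower in contralateral and 1 higher in ipsilateral hippocampus, and 1 rose with time ipsilaterally. Of 6 choroid plexus markers 1 was higher in contralateral hippocampus, and of 5 blood markers 2 were higher contralaterally and 2 lower ipsilaterally between regions. The part of these cell types in the Kcn differences was not tested.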

How the data were processed

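Expression was measured in rat cortex and hippocampus on 47 single-colour oligonucleotide arrays. The authors deposited a linear signal intensity per probe set. The algorithm that summarised probes was not given in the sources used here. Since the 2%-trimmed mean was 2503 to 2504 on every array, values were kept as deposited. The deposited intensity was raised to the 25th percentile of all values (185.8) and log2 was taken, which understates differences of dim probe sets. Probe sets above this floor on at least 7 arrays were tested, without 59 control probe sets, leaving 7503. Precision is limited by how many arrays each group has.

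Symbols are those of the platform annotation, which can be old: 7018 probe sets carry 1 symbol, 308 carry several and 1473 carry none. All 54 Kcn genes matched RefSeq by gene ID. Groups came from the labels. R 4.3.3 with limma 3.58.1 fitted 6 group means to all 47 arrays (lmFit, eBayes with an intensity trend), two-sided, with Benjamini-Hochberg adjustment within each of 9 comparisons at 0.05. The procedure was tested on simulated data. Extraction numbers occur once each, so no block was used.

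The Kcn genes, the lists and the tests were chosen with earlier results of these data known. Values by array are given for Kcns1, Kcnj10, Kcnd3, Kcnc2 and Kcna1, for the 4 largest calls of each comparison and, where none passed, for the 3 smallest p-values; other members shown were chosen after their values were seen. Lists of partners and pumps and of cell type markers used 1 probe set a gene, the one with the highest mean. Alternatives were another floor, a pseudocount of 64, no filter, quantile normalization, array weights, no trend, the compared groups alone, the 10th percentile of signal or the Gapdh ratio as a term, and leaving out each array.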

Additional observations from a re-analysis of the deposited data

Results flagged for a closer look

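Of 144 groups of arrays examined for named members, 16 held an array far from the others, by its gap to the next array over the range. The cutoff passes about 1 in 20 groups by chance for normal values. That rate does not hold here, since values were raised to the floor and probe sets share arrays. For Kcns1 in contralateral hippocampus all other arrays lay at the floor. In ipsilateral cortex at 24 h, array 34 was the lowest for 7 probe sets, with log2 signals of 7.537 for Kcnh5, 7.537 for Kcna2, 7.537 for Kcnma1 on U40603_at, 7.746 for Kcnc2 on M59211_at, 9.543 for Kcnc2 on M84203_s_at, 10.62 for Kcnab2 on X76724_at and 8.858 for Kcnj10 on X83585cds_s_at. This array had the lowest median signal (665) and 10th percentile (36.5) and the highest Gapdh ratio (1.14) of its group. Without it the count of Kcn probe sets that differed with time in ipsilateral cortex was 15.

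In other groups the distant arrays were array 14 for Kcnt1 (7.537, contralateral cortex at 4 h), array 16 for Kcnd3 on M74898cds_s_at (8.89, the same group, highest) and array 11 for Kcnh1 (11.14, the same group, lowest). Array 40 was the highest for Kcnd3 on rc_AI230211_s_at in ipsilateral cortex at 24 h (11.39), and array 32 in contralateral hippocampus (11.07). Array 26 was the lowest for Kcna1 on X12589cds_s_at (10.84) and array 23 the highest for Kcns1 (7.839), both in contralateral hippocampus. In ipsilateral hippocampus array 22 was the highest for Kcnh4 (9.328) and the lowest for Kcnc2 on X62839mRNA_s_at (10.41). Array 23, whose number stands outside the run of its group, had the highest 10th percentile of signal (98.9) of its group, and 11 Kcn probe sets differed between hippocampal sides without it.

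The side difference in hippocampus differed from that in cortex at 4 h, by the interaction term, for Kcnd2 (0.6355), Kcnj1 (-1.119), Kcnd3 (0.8382) and Kcna1 (1.082).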

How the results depend on the processing

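Of the 115 Kcn calls over all comparisons, 1 changed sign under an alternative other than leaving out arrays: Kcnab2 on rc_H33656_at with time contralaterally, at 0.04 with the Gapdh ratio as a term. Calls lost numbered 43 with the Gapdh ratio, 29 with the 10th percentile of signal, 24 with quantile normalization, 24 with the compared groups alone, 13 without the filter, 10 with array weights, 9 with the lower floor, 4 without the trend and 3 with the pseudocount. With each array's 10th percentile of signal as a term, 0 Kcn probe sets passed between hippocampal sides and 0 in the difference of side differences. That difference gave 2 without the filter on dim probe sets and 1 with the compared groups alone. With the Gapdh ratio as a term, chosen after seeing the data, 5 passed with time ipsilaterally, 6 with time contralaterally and 23 between regions contralaterally. The causes of these changes were not tested. Leaving out 1 array gave 8 to 15 between hippocampal sides, 13 to 18 and 12 to 15 with time contralaterally and ipsilaterally, 26 to 38 and 25 to 30 between regions contralaterally and ipsilaterally, and 0 throughout for the cortical side comparisons and their change. For the difference of side differences it gave 1 to 7: 1 without array 6, 7 without array 14, and 2 without any of arrays 1, 3, 5, 10, 11, 15, 16, 18, 19, 20, 21, 23, 24, 25 and 27. No paired analysis was possible because the labels' extraction numbers occur once each. The floor understates differences of probe sets that lie under it in 1 group, here Kcns1, Kcnma1, Kcna2 and Kcnk5.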
